A study of Mus musculus with 24 samples.

Results

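The 9 genes described here are Spp1, Mmp2, Mmp14, Mmp7, Mmp9, Plau, Plaur, Ptgs2 and Cxcr4, which have been named as targets of PEA3 transcription factors in other tissues. They were taken by NCBI Gene number from a table of 28059 genes, and all 9 were found. The question was how these genes stand in islets that lack COP1, and in islets that lack COP1 together with PEA3 factors. Values are RPKM, the reads of a gene scaled to its length and to the reads of its library.

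PEA3 factors are the ETS family members ETV1, ETV4 and ETV5, which bind DNA around a GGAA core and often act with AP-1 factors. COP1 is the ubiquitin ligase subunit that marks them for destruction, so loss of COP1 lets them build up. In epithelial tumours these factors are known for switching on secreted and cell-surface proteins that remodel the matrix around a cell. Osteopontin, metalloproteases, the urokinase system, cyclooxygenase 2 and the chemokine receptor CXCR4 are among the targets named there.

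RNA came from hand-picked islets of mice aged 3 to 4 months on a mixed background, in 2 sets told apart by sample number. The first, set 1, had 4 libraries with Cop1, Etv1 and Etv5 floxed, both Etv4 alleles knocked out and Pdx1.CreERT2 (Cop1 Etv1/4/5 deletion), 3 with floxed Cop1 and Pdx1.CreERT2 (Cop1 deletion), and 3 controls with floxed Cop1 and no Cre. Set 2 held 4 libraries with Cop1 and Etv5 floxed, a single Etv4 allele knocked out and Pdx1.CreERT2 (Cop1 Etv4/5 deletion), 4 with Cop1 deletion and 4 controls of the same genotypes as in set 1. All 6 groups, the controls included, carried floxed Cop1. Pdx1.CreERT2 is a Cre that acts once tamoxifen is present, driven by the promoter of a gene that is active in β cells and in some other pancreatic cells. The cells of an islet that do not express it keep their floxed alleles, whereas an Etv4 knockout allele is carried by every cell, and the set 2 Cop1 Etv4/5 deletion cells also keep an intact one. Per genotype, 5 biological replicates are named in the design text, and no label says how a library relates to a mouse or culture. P-values therefore measure the spread between these libraries, which may be technical. Some set 1 libraries held transcripts that mark both sexes (given below), so they may hold RNA of more than 1 mouse, which was not tested.

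The labels were checked by the targeted genes. Cop1 was below every control of its set in all 15 libraries labelled with its deletion, at 0.719 to 1.04, 0.984 to 1.13 and 1.22 to 1.55 RPKM in Cop1 Etv1/4/5 deletion, Cop1 deletion and control of set 1, and at 0.770 to 0.856, 0.763 to 0.934 and 1.43 to 1.87 RPKM in Cop1 Etv4/5 deletion, Cop1 deletion and control of set 2. Etv4 went against its label: it was 0.927 to 1.53 RPKM in the Cop1 Etv1/4/5 deletion libraries, against 0.0551 to 0.0775 RPKM in Cop1 deletion and 0.0418 to 0.118 RPKM in control. The floxed Etv1 and Etv5 were not called lower there relative to Cop1 deletion either, at 4.89 to 5.61 RPKM of Etv1 in Cop1 Etv1/4/5 deletion against 4.23 to 5.01 RPKM in Cop1 deletion (log2 fold change 0.15), and 2.57 to 4.85 RPKM of Etv5 against 2.31 to 3.58 RPKM (0.33). In Cop1 Etv4/5 deletion relative to Cop1 deletion of set 2, log2 fold changes were 0.01 for Etv4 and -0.33 for Etv5, neither called. Relative to control, Etv5 was already called lower after Cop1 deletion alone in set 2 (-1.13, adjusted p = 0.0124, limma). It was also called lower than control in Cop1 Etv4/5 deletion (-1.46, adjusted p = 0.00368, limma), and all libraries of both groups lay below every control. In set 1, Etv5 was not called relative to control in Cop1 deletion (-0.57) or Cop1 Etv1/4/5 deletion (-0.24). A value per gene does not separate the deleted part from the rest, so in every comparison below the loss of the Etv genes rests on the labels. Esr1, part of which makes up CreERT2, was 99.1 RPKM in the library labelled set 1 control replicate 2, against 0.169 and 0.191 RPKM in the other set 1 controls. That library also had the lowest Cop1 of the set 1 controls, at 1.22 RPKM against 1.53 and 1.55 RPKM. Ins1 and Ins2, the insulin genes of β cells, made up 21.0% to 41.1% of the summed RPKM. Relative to the deepest library, set 1 libraries had a depth of 0.331 to 0.526, and set 2 libraries one of 0.758 to 1. Read totals are unknown, but the values of each of the 9 genes were whole multiples of one step per library, within 0.02 of a step, and these steps are used below as a measure of the reads behind a value.

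The starts of 6 of the 9 genes were found in the promoter table of RefSeq (GRCm38.p6, a later build than the deposited table's), in 8 windows of 250 bases. Mmp2, Mmp9 and Plau had no entry. Shown are Spp1, the gene with called differences, Mmp7 and Plaur, whose windows also hold an AP-1 motif, and Cxcr4, the one without a PEA3 motif. Each runs 5′ to 3′ on the strand of its gene up to the last base before the annotated start, and capitals mark the PEA3 motif AGGAAG, which is spelled CTTCCT where it lies on the opposite strand. Capitals also mark the AP-1 motif TGANTCA.
Spp1, chr5:104434861-104435110, plus strand: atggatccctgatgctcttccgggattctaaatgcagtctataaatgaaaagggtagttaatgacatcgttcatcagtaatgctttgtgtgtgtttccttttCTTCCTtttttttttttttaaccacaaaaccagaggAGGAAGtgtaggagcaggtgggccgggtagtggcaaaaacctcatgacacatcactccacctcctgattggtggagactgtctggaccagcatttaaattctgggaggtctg
Mmp7, chr9:7691840-7692089, plus strand: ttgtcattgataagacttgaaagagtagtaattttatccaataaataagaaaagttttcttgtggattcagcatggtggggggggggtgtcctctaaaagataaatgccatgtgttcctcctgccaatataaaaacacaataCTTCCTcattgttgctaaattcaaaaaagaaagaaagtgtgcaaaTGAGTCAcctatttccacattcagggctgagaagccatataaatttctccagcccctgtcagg
Plaur, chr7:24462233-24462482, plus strand: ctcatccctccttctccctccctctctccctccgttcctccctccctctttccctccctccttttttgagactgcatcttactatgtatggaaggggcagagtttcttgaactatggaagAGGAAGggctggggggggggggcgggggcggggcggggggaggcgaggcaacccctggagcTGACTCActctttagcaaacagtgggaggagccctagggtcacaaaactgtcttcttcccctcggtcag
Cxcr4, chr1:128592300-128592549, minus strand: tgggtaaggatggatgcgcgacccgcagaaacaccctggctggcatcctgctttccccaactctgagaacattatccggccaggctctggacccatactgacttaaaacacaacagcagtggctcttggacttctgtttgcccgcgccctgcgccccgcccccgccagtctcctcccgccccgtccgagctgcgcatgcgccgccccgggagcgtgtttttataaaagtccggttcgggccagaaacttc

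The PEA3 motif was searched on both strands and stood in 7 of the 8 windows, against 29.5% of the 32851 mouse windows of the same length. The 8 windows come from 6 genes, with 2 each for Spp1 and Mmp7, and those of Mmp7 lie side by side. The second window of each lies downstream of the first annotated start, so its 1 match falls within the gene. By gene, each of the 6 but Cxcr4 had a match. The Spp1 window above holds it at 2 places, beginning 148 and 112 bases before the start, and no other window holds more than 1. The shorter core GGAA, which lies within the PEA3 motif, stood in 93.4% of all windows. TGANTCA stood in 6.75% of them and, among these genes, in the first Mmp7 window, 63 bases before the start, and in the Plaur window, 69 bases before it. The genes were picked as PEA3 targets, so the share of windows with the motif was fixed in part by the choice. A match is a run of letters and not a measured site.

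**Figure D1:**
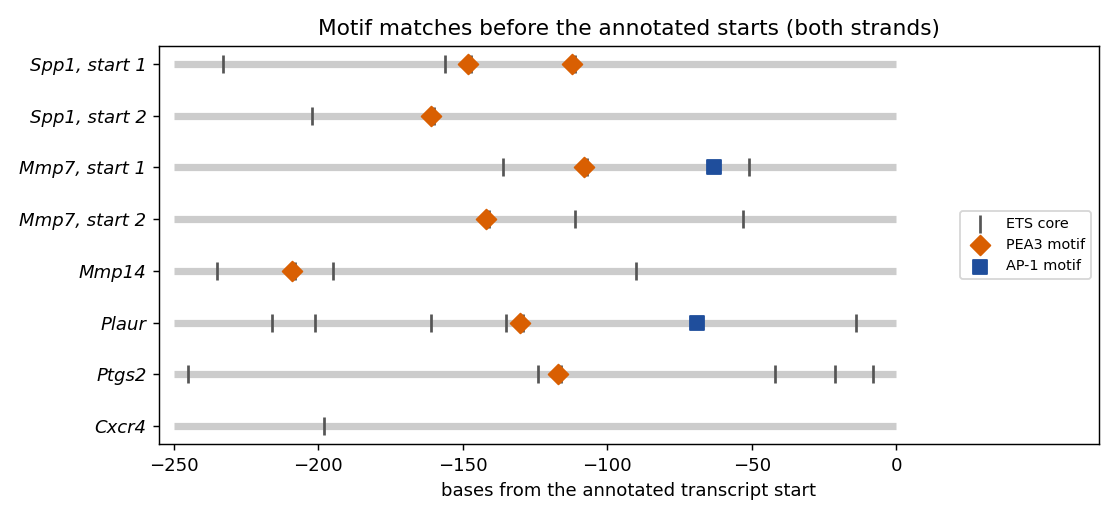
Places of the motif matches in the 8 promoter windows, in bases from the annotated transcript start, found on both strands. Diamonds are the PEA3 motif, squares the AP-1 motif and ticks the ETS core GGAA; the Spp1 window with 2 diamonds and the Cxcr4 window with none stand at the top and bottom.

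Spp1 was the gene of the group that differed between genotypes. It encodes osteopontin, a secreted acidic phosphoprotein that binds integrins and CD44, and that duct cells and macrophages are known to make. In set 1, Spp1 (NCBI Gene 20750) was 39.0, 18.9, 13.5 and 19.2 RPKM in Cop1 Etv1/4/5 deletion, 153, 73.2 and 65.5 RPKM in Cop1 deletion, and 34.4, 34.8 and 10.1 RPKM in control. All 3 Cop1 deletion libraries lay above every library of the other groups, which overlapped each other. In set 2, Spp1 was 2013, 671, 567 and 414 RPKM in Cop1 Etv4/5 deletion, 3125, 2035, 3493 and 1844 RPKM in Cop1 deletion, and 750.4, 891, 1268 and 919.9 RPKM in control. The 4 Cop1 deletion libraries lay above all 4 controls, and 3 of the 4 Cop1 Etv4/5 deletion libraries lay below every control. The remaining one, replicate 1, stood among the Cop1 deletion libraries.

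**Figure D2:**
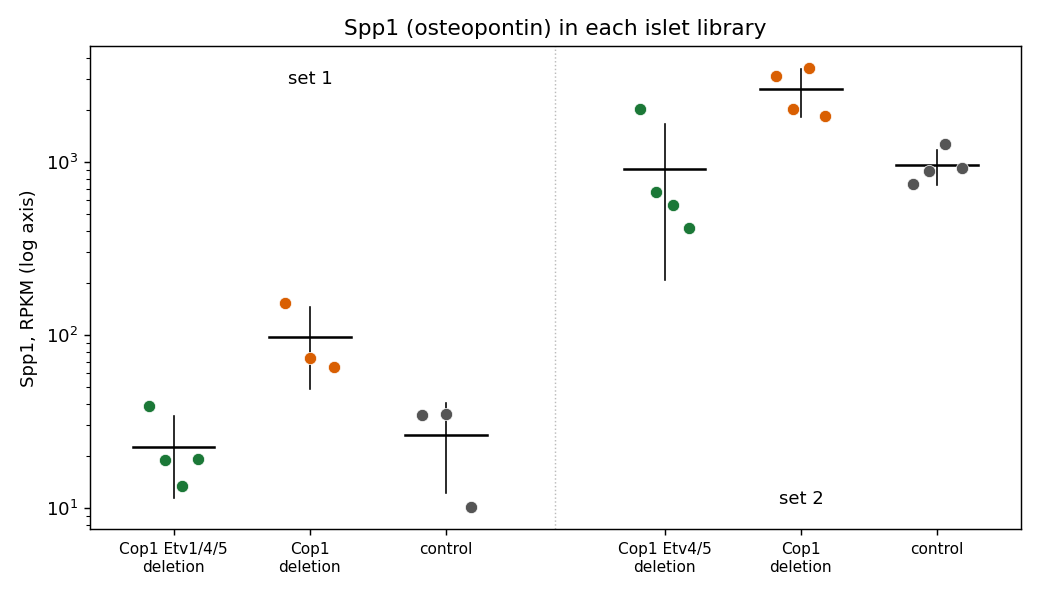
Spp1 in RPKM (log axis) in each library, by genotype and set; points are libraries, horizontal bars group means and vertical lines 1 SD. Cop1 deletion is the highest group of each set (65.5 to 153 RPKM in set 1, 1844 to 3493 RPKM in set 2), and 1 Cop1 Etv4/5 deletion library stands at 2013 RPKM.

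Spp1 rose after Cop1 deletion. A gene is called here when its Benjamini-Hochberg adjusted p from limma, over all 14342 genes tested on log2(RPKM + 0.5), is below 0.05. Over control, the log2 fold change of Spp1 was 1.95 in set 1 (SE 0.53, adjusted p = 0.0266, n = 3 and 3, higher in 3 of 3 libraries) and 1.43 in set 2 (SE 0.46, adjusted p = 0.0361, n = 4 and 4, higher in 4 of 4). Group means were 97.3 ± 48.6 and 26.4 ± 14.2 RPKM in set 1 (SD) and 2624 ± 809 and 957 ± 219.7 RPKM in set 2. The mean of the set differences was 1.69 (SE 0.35, adjusted p = 0.00191), and the difference between the sets was 0.52 (set 1 minus set 2, 95% interval -0.95 to 1.99, adjusted p = 0.743). The call in set 1 was lost under 5 of 18 alternatives. It was lost without Cop1 deletion replicate 2 (log2 fold change 1.57, adjusted p = 0.144), replicate 3 (2.10, adjusted p = 0.0523) or control replicate 3 (1.37, adjusted p = 0.150). The others were fitting set 1 alone (adjusted p = 0.0661, limma) and fitting only the groups compared (0.0875). The call in set 2 was lost under 11 of 20 alternatives, among them fitting set 2 alone (adjusted p = 0.0516, limma). Others were leaving out Cop1 deletion replicate 1 (adjusted p = 0.0626) or 3 (0.0801), or control replicate 1 (0.0911), 2 (0.0775) or 4 (0.0518). The call on the mean of the sets held under all 25 alternatives. Without the library labelled set 1 control replicate 2, which had high Esr1, the set 1 difference was 2.24 (adjusted p = 0.0249, limma).

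With PEA3 factors deleted as well, Spp1 was called lower than after deletion of Cop1 alone in set 1 and was not called in set 2. In set 1 it fell by 2.08 on the log2 scale in Cop1 Etv1/4/5 deletion relative to Cop1 deletion (SE 0.50, adjusted p = 0.0137, limma, n = 4 and 3, with all 4 libraries below all 3). Without Cop1 deletion replicate 2 the difference was -1.70 (adjusted p = 0.098). In set 2 the log2 fold change in Cop1 Etv4/5 deletion relative to Cop1 deletion was -1.75 (SE 0.46, adjusted p = 0.0544, limma, n = 4 each), which is not called. It was -2.23 and called without Cop1 Etv4/5 deletion replicate 1 (adjusted p = 0.0205). In that library Esr1 was the lowest of its group at 71.9 RPKM, against 93.9 to 98.3 RPKM in the others, and Etv4 and Etv5 were the highest, at 1.20 and 1.83 RPKM; the part of this in the result was not tested. It was also called without Cop1 deletion replicate 4 (-1.90, adjusted p = 0.0351). These comparisons share the Cop1 deletion libraries with those against control.

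Against control, Cop1 Etv1/4/5 deletion libraries had a log2 fold change of -0.14 for Spp1 in set 1 (95% interval -1.18 to 0.90, adjusted p = 0.996, limma) and Cop1 Etv4/5 deletion libraries one of -0.32 in set 2 (95% interval -1.29 to 0.64, adjusted p = 0.755). The intervals include differences in either direction, so the values do not show that Spp1 was at its control level. Spp1 means were 22.6 ± 11.2 RPKM in Cop1 Etv1/4/5 deletion (SD, n = 4) and 916 ± 739 RPKM in Cop1 Etv4/5 deletion (n = 4). The coefficient of variation was 80.6% in Cop1 Etv4/5 deletion, against 30.8% in Cop1 deletion and 23% in control of set 2.

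The level of Spp1 differed far more between the sets than between genotypes. Control means were 36.2 times as high in set 2 as in set 1, and the lowest set 2 library (414 RPKM) stood above the highest of set 1 (153 RPKM). Spp1 ranked between place 12 and place 59 of all genes by RPKM in set 2, and between place 216 and place 6031 in set 1. The set difference was not tested, because sets differ in all that was done apart. Every comparison therefore stays within a set. Spp1 rested on 304 to 5924 read steps per library in set 1 and 31687 to 271782 in set 2, so counting error is small beside the spread between libraries.

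A second row of the table, a near-twin of Spp1 with an NCBI Gene number but no symbol in the annotation used, has nearly the values of Spp1. Its RPKM was 0.913 to 1.15 times that of Spp1 over the 22 libraries, with a median of 1.01. It was called in the same direction after Cop1 deletion, with log2 fold changes of 2.04 in set 1 (SE 0.51, adjusted p = 0.0163, limma) and 1.47 in set 2 (SE 0.44, adjusted p = 0.0266). It was also called lower in Cop1 Etv1/4/5 deletion than in Cop1 deletion (-2.07, adjusted p = 0.0113) and in Cop1 Etv4/5 deletion than in Cop1 deletion (-1.80, adjusted p = 0.0444), where Spp1 itself was not. That last call was lost under 12 of 20 alternatives, with adjusted p up to 0.241, among them leaving out any of Cop1 Etv4/5 deletion replicates 2 to 4 (-1.74, -1.66 and -1.51) or Cop1 deletion replicates 1 to 3 (-1.71, -1.86 and -1.65). From its step sizes the row is 42.7% as long as Spp1, and it took 39% to 49% as many read steps. How reads were divided between both rows is not given in the sources used here, so the level of Spp1 is uncertain and the row is no independent support for its differences.

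Markers of the other cells that make osteopontin were measured beside it. In islet RNA, a change in the number of cells of a type and a change in RNA per cell cannot be told apart. The 12 duct markers, all present in the table, summed to 903 to 987, 634 to 708 and 657 to 852 RPKM in Cop1 Etv1/4/5 deletion, Cop1 deletion and control of set 1. There, unlike Spp1, the Cop1 deletion sums overlapped control, and all Cop1 Etv1/4/5 deletion sums lay above both other groups. In set 2 they summed to 1034 to 1111, 1366 to 1672 and 673 to 809 RPKM in Cop1 Etv4/5 deletion, Cop1 deletion and control, the same order of Cop1 deletion over control as Spp1. Unlike Spp1, all Cop1 Etv4/5 deletion sums lay above every control of set 2. Of the 10 duct markers tested, 1 was called higher and 2 lower after Cop1 deletion in set 1, where 8.33% of all genes were called, and 4 higher and none lower in set 2, where 18.8% were. Relative to Cop1 deletion, 3 were called higher in Cop1 Etv1/4/5 deletion (6.34% of all genes called), the opposite direction from Spp1. In Cop1 Etv4/5 deletion 2 were called lower (1.73%). All 10 had negative log2 fold changes there, with a median of -0.47, the same direction as Spp1. Krt19, a duct keratin, was 2.22 to 3.68 RPKM in Cop1 deletion and 0.979 to 4.08 RPKM in control of set 1, and 12.9 to 71.6 RPKM in Cop1 deletion and 5.14 to 33.3 RPKM in control of set 2. Sox9, another duct marker, overlapped between Cop1 deletion and control, at 0.553 to 0.906 and 0.305 to 1.13 RPKM in set 1. In set 2 it was 0.553 to 3.28 and 0.463 to 3.93 RPKM. The sums rest mainly on Krt7, Krt18, Epcam and Krt8, with means of 320, 287, 124 and 114 RPKM over the 22 libraries. Whether these transcripts came from duct cells or from other islet cells was not tested. Cftr and Onecut1, at means of 0.0610 and 0.0909 RPKM, were too low to be tested. Krt19, Sox9, Adgre1 and Csf1r were above 0 in every library.

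The 12 macrophage markers summed to 52.0 to 87.2, 44.7 to 80.3 and 51.7 to 60.7 RPKM in Cop1 Etv1/4/5 deletion, Cop1 deletion and control of set 1. No member was called there after Cop1 deletion, against 8.33% of all genes. In set 2 they summed to 69.1 to 73.9 RPKM in Cop1 Etv4/5 deletion, 78.2 to 189 RPKM in Cop1 deletion and 62.5 to 102 RPKM in control. After Cop1 deletion 2 of 11 were called higher there, against 9.09% of all genes. The 2 Cop1 deletion libraries with the lower macrophage sums, 78.2 and 79.0 RPKM, had Spp1 at 3125 and 1844 RPKM, above every control. Acinar markers, 14 in the list and 13 tested, summed to 1168 to 4723 RPKM in Cop1 Etv4/5 deletion, 4473 to 24757 RPKM in Cop1 deletion and 901 to 12989 RPKM in control of set 2. None was called after Cop1 deletion, against 8.33% of all genes in set 1 and 18.8% in set 2. The median log2 fold change of the 13 was 0.47 in set 1 and 1.46 in set 2, where 12 were positive. In Cop1 Etv4/5 deletion relative to Cop1 deletion 1 was called lower (1.05% of all genes called lower), with a median of -1.92. The part of duct cells, macrophages and acinar cells in the result was not tested.

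Transcripts that mark sex were not balanced between the genotypes of either set. All 4 set 2 controls had Xist, at 51.6 to 62.9 RPKM, and Y-linked transcripts summing to at most 0.031 RPKM. Cop1 deletion libraries with Xist had Spp1 at 3125 and 1844 RPKM, and those with Y-linked transcripts at 2035 and 3493 RPKM. No control of set 2 was of the Y-linked kind, so those libraries have none to be set against, and the part of sex was not tested. Cop1 Etv4/5 deletion libraries had Spp1 at 671 and 414 RPKM with Xist, and at 2013 (replicate 1) and 567 RPKM with Y-linked transcripts. In set 1, Cop1 Etv1/4/5 deletion libraries had 39.0 and 18.9 RPKM with Y-linked transcripts alone, and 13.5 and 19.2 RPKM with both kinds. In set 1 the control with Xist alone, replicate 3, was the one with the least Spp1, at 10.1 RPKM. Without it the set 1 call of Spp1 after Cop1 deletion was lost (log2 fold change 1.37, adjusted p = 0.150, limma). All Cop1 deletion libraries of set 1 had Y-linked transcripts, 2 of them alone (153 and 65.5 RPKM) and 1 with Xist as well (73.2 RPKM). Controls with Y-linked transcripts alone had 34.4 and 34.8 RPKM.

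By a fixed rule, the 3 genes whose pattern over the 22 libraries was most like that of Spp1, after the mean of each set was taken out, were Slc37a1 (Pearson r = 0.88, Spearman rho = 0.87), Alg3 (0.78 and 0.77) and Snx7 (0.78 and 0.71). These likenesses are descriptions, since libraries share a set and a genotype. Snx7, which encodes a sorting nexin, was 5.40 ± 0.95 RPKM in Cop1 deletion and 4.18 ± 0.15 RPKM in control of set 1 (SD, n = 3 each), and 7.03 ± 0.31 and 5.62 ± 0.28 RPKM in set 2 (n = 4 each). Snx7 was called higher after Cop1 deletion in both sets (adjusted p = 0.0226 and 0.00815, limma). Slc37a1 was called in set 1 (log2 fold change 0.38, adjusted p = 0.00725) and not in set 2 (0.14, adjusted p = 0.198). Alg3 was called in neither set (0.24, adjusted p = 0.0528, and 0.10, adjusted p = 0.277, limma). None of the other 8 genes was among these 3, and over the same libraries Pearson r of Spp1 with the 7 others tested was 0.04 (Plaur) to 0.43 (Mmp7).

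None of the 7 other genes that could be tested was called in any comparison. With Spp1, this makes 1 of 8 genes called after Cop1 deletion in set 1, where 8.33% of all genes tested were called (4.04% higher), and 1 of 8 in set 2, where 18.8% were (9.09% higher). On the mean of the sets it was 1 of 8 against 20.1% (9.57% higher), and for the difference between the sets none of 8 against 2.83%. In Cop1 Etv1/4/5 deletion relative to Cop1 deletion 1 of 8 was called against 6.34% (2.69% lower), and in Cop1 Etv4/5 deletion relative to Cop1 deletion none of 8 against 1.73% (0.676% higher and 1.05% lower). Relative to control none of 8 was called in Cop1 Etv1/4/5 deletion, against 1.32%, or in Cop1 Etv4/5 deletion, against 8.74%. A single call among 8 genes is too few to set these genes apart from those shares. The median log2 fold change of the 8 genes was 0.21 in set 1 and 0.18 in set 2 after Cop1 deletion, against -0.01 and -0.02 over all genes tested.

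**Figure D3:**
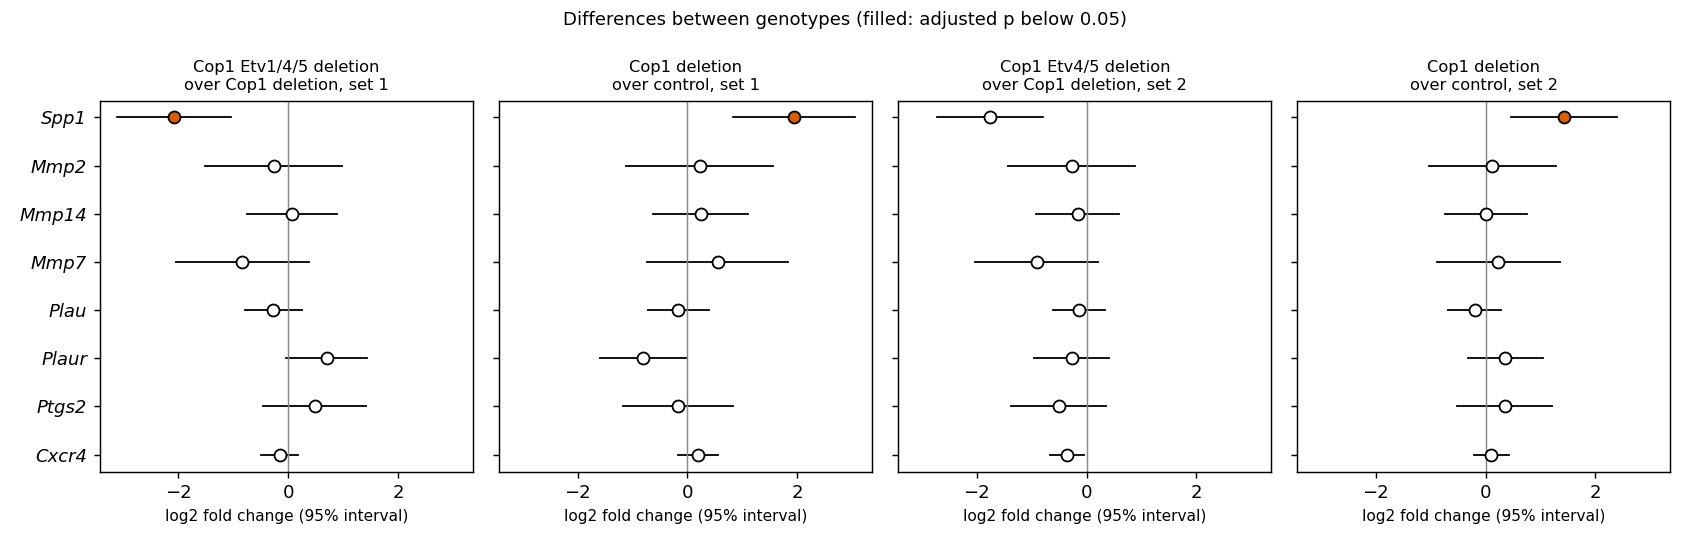
Log2 fold changes of the 8 genes tested, with 95% intervals, for each Etv deletion over Cop1 deletion and for Cop1 deletion over control in each set; filled points have an adjusted p below 0.05. Spp1 alone is filled, in 3 of the 4 panels, and the intervals of most other genes cross 0.

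The intervals of these 7 genes say what could have been missed. On the mean of the sets, their log2 fold changes after Cop1 deletion ran from -0.22 to 0.39, their 95% intervals from -0.75 to 1.24, and their adjusted p from 0.384 to 0.878 (limma, 7 Cop1 deletion and 7 control libraries). The narrowest interval was that of Cxcr4, -0.09 to 0.39, and the widest that of Mmp2, -0.71 to 1.06. These intervals are on the log2(RPKM + 0.5) scale, which understates changes of low genes, Mmp7 above all.

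Among the metalloproteases, Mmp2 (NCBI Gene 17390) encodes gelatinase A and Mmp14 (NCBI Gene 17387) the membrane-bound protease that activates it. In set 1, Mmp2 was 2.52, 2.03, 1.12 and 1.59 RPKM in Cop1 Etv1/4/5 deletion, 2.81, 2.72 and 1.38 RPKM in Cop1 deletion, and 2.61, 1.44 and 1.59 RPKM in control. In set 2 it was 3.30, 1.87, 2.13 and 1.15 RPKM in Cop1 Etv4/5 deletion, 0.344, 2.89, 5.89 and 4.04 RPKM in Cop1 deletion, and 1.10, 0.804, 2.68 and 8.35 RPKM in control. The groups overlapped in both sets, and set 2 control and Cop1 deletion each spanned a wide range. Log2 fold changes of Mmp2 after Cop1 deletion were 0.22 in set 1 (SE 0.64, adjusted p = 0.913, limma) and 0.12 in set 2 (SE 0.55, adjusted p = 0.899).

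Mmp14 was 2.62 to 3.46, 2.47 to 3.38 and 2.14 to 2.74 RPKM in Cop1 Etv1/4/5 deletion, Cop1 deletion and control of set 1. In set 2 it was 10.1, 9.32, 9.24 and 6.86 RPKM in Cop1 Etv4/5 deletion, 3.48, 15.8, 19.3 and 8.58 RPKM in Cop1 deletion, and 6.95, 6.50, 11.8 and 17.3 RPKM in control. The lowest set 2 value, 3.48 RPKM, lay above the highest of set 1, 3.46 RPKM, and control means were 4.32 times as high in set 2. Between genotypes Mmp14 overlapped, with log2 fold changes after Cop1 deletion of 0.24 in set 1 (SE 0.42, adjusted p = 0.840, limma) and 0.01 in set 2 (SE 0.36, adjusted p = 0.992); the sign in set 2 turned under 8 of 20 alternatives.

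Both genes were set beside markers of stroma, the fibroblasts and pericytes around an islet. The 12 stromal markers, all tested, summed to 134 to 156, 123 to 184 and 109 to 149.5 RPKM in Cop1 Etv1/4/5 deletion, Cop1 deletion and control of set 1, and to 105 to 129, 20.5 to 183 and 40.0 to 128 RPKM in Cop1 Etv4/5 deletion, Cop1 deletion and control of set 2. The set 2 library with the least, Cop1 deletion replicate 1, had 20.5 RPKM of stromal markers, and also the least Mmp2 (0.344 RPKM) and Mmp14 (3.48 RPKM) of its set. The set 2 library with the most, Cop1 deletion replicate 3 at 183 RPKM, had the most Mmp14 of all (19.3 RPKM). The most Mmp2, 8.35 RPKM, was in set 2 control replicate 4, whose stromal markers summed to 85.8 RPKM. The genes most like Mmp2 over the 22 libraries were Pdpn (r = 0.94), Fbln2 (0.93) and Pdgfra (0.92), all known from fibroblasts and the last also in the marker list, and those most like Mmp14 were Cav1 (0.94), Ifitm3 (0.94) and Smtn (0.92). The part of stromal cells in the values was not tested.

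**Figure D4:**
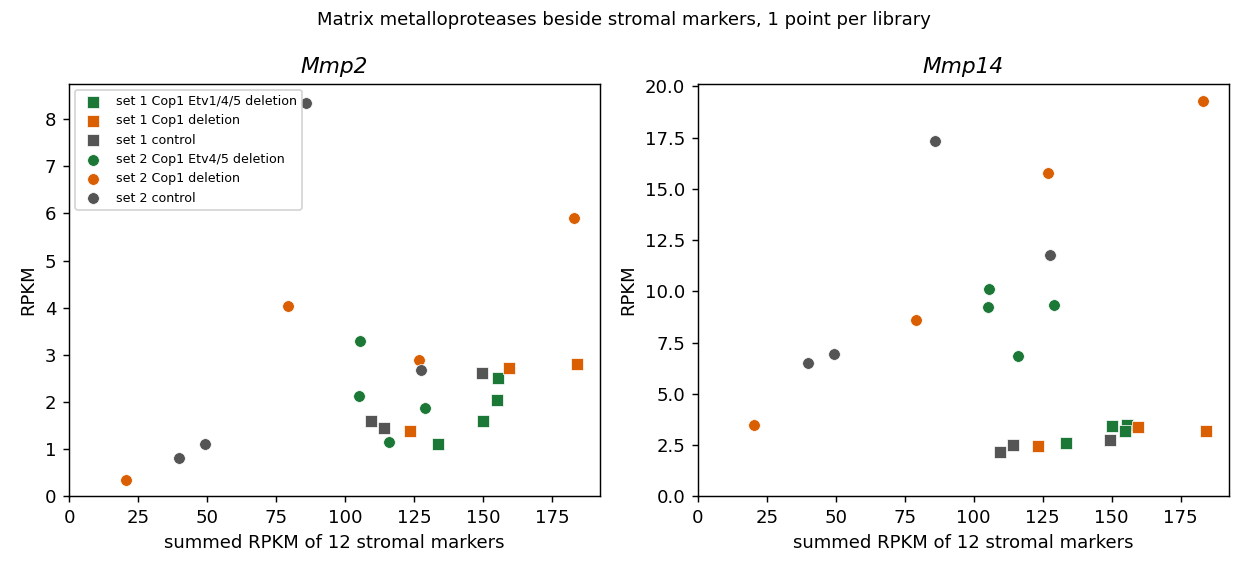
Mmp2 and Mmp14 in RPKM against the summed RPKM of 12 stromal markers, 1 point per library, squares for set 1 and circles for set 2. The set 2 library with 20.5 RPKM of stromal markers has the least of both genes in its set, and the one with 183 RPKM has the most Mmp14, 19.3 RPKM.

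Mmp7 (NCBI Gene 17393) encodes matrilysin, a protease of epithelia. It was 0.168, 0.105, 0 and 0.166 RPKM in Cop1 Etv1/4/5 deletion, 0.0489, 1.96 and 0.435 RPKM in Cop1 deletion, and 1.11, 0 and 0 RPKM in control of set 1. These values rest on 0 to 38 read steps, and 1 library of each of several groups carries most of them. In set 2, Mmp7 was 1.34, 0.637, 0.464 and 0.0247 RPKM in Cop1 Etv4/5 deletion, 0.458, 1.54, 1.80 and 2.45 RPKM in Cop1 deletion, and 0.871, 0.437, 0.704 and 3.99 RPKM in control, on 1 to 193 steps. Its log2 fold changes relative to Cop1 deletion were -0.84 in Cop1 Etv1/4/5 deletion (SE 0.58, adjusted p = 0.503, limma) and -0.91 in Cop1 Etv4/5 deletion (SE 0.53, adjusted p = 0.30), on a scale that understates changes of genes this low. The groups overlapped in each case.

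Mmp9 (NCBI Gene 17395), gelatinase B, which neutrophils and macrophages are known to carry, was too low for the fit, with 1 RPKM reached in 1 library. It was 0.344, 0.117, 0.150 and 0.370 RPKM in Cop1 Etv1/4/5 deletion, 0.205, 0.259 and 0.137 RPKM in Cop1 deletion, and 0.218, 0.198 and 0.245 RPKM in control of set 1. In set 2 it was 0.242, 0.171, 0.109 and 0.110 RPKM in Cop1 Etv4/5 deletion, 0.0768, 1.43, 0.733 and 0.230 RPKM in Cop1 deletion, and 0.122, 0.145, 0.499 and 0.463 RPKM in control. No groups were apart, and exact 2-sided permutation tests on log2(RPKM + 0.5) gave p = 0.80 and 0.457 for Cop1 deletion against control in sets 1 and 2, where the smallest p possible was 0.10 and 0.0286. They gave p = 0.60 for Cop1 Etv1/4/5 deletion and p = 0.257 for Cop1 Etv4/5 deletion against Cop1 deletion (exact permutation, smallest possible 0.0286). The library with 1.43 RPKM of Mmp9, set 2 Cop1 deletion replicate 2, also had the most lymphocyte markers, 57.1 RPKM summed, against 1.21 to 12.7 RPKM in the others of its group. It and replicate 3, which had 0.733 RPKM of Mmp9, also had the high macrophage sums of the group. These were 180.4 and 189 RPKM, against 78.2 and 79.0 RPKM. Granulocyte markers summed to 26.8, 11.8, 19.5 and 1.48 RPKM in replicates 1 to 4, the most in the library with the least Mmp9. Set 1 Cop1 Etv1/4/5 deletion replicate 4 had 202 RPKM of granulocyte markers and 0.370 RPKM of Mmp9. The part of all these cells was not tested.

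Of 26 other metalloprotease genes, 14 were tested, and after Cop1 deletion none was called in set 1 and 3 rose in set 2, where 18.8% of all genes were called. These were Mmp19 (log2 fold change 0.73, SE 0.20, adjusted p = 0.0170), Mmp24 (0.20, SE 0.06, adjusted p = 0.0312) and Mmp15 (0.42, SE 0.14, adjusted p = 0.0447, all limma), the last 2 being membrane-type enzymes like Mmp14. The median log2 fold change of the 14 was 0.02 in set 1 and 0.07 in set 2. Of 5 inhibitor genes 4 were tested and none was called in any comparison, against 1.32% to 20.1% of all genes by comparison. Timp3 was 12.6 ± 4.1 RPKM in Cop1 deletion and 12.6 ± 2.8 RPKM in control of set 2 (SD, n = 4 each).

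Neither urokinase nor its receptor was called in any comparison, and over the 22 libraries their Pearson r was 0.43. Plau (NCBI Gene 18792), which encodes the protease that activates plasminogen at the cell surface, was 5.30, 4.47, 3.33 and 4.45 RPKM in Cop1 Etv1/4/5 deletion, 6.59, 5.62 and 4.06 RPKM in Cop1 deletion, and 4.33, 7.66 and 6.54 RPKM in control of set 1. In set 2 it was 3.82, 3.71, 3.80 and 2.88 RPKM in Cop1 Etv4/5 deletion, 2.85, 4.98, 6.06 and 2.76 RPKM in Cop1 deletion, and 4.39, 3.72, 4.19 and 6.58 RPKM in control. All groups overlapped, and log2 fold changes after Cop1 deletion were -0.16 in set 1 (SE 0.26, adjusted p = 0.828, limma) and -0.20 in set 2 (SE 0.23, adjusted p = 0.565). Plau was the one gene of the 9 with a lower control mean in set 2 than in set 1, at 0.764 times.

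Plaur (NCBI Gene 18793), the urokinase receptor, was 13.2, 4.03, 4.84 and 7.01 RPKM in Cop1 Etv1/4/5 deletion, 5.38, 3.31 and 3.15 RPKM in Cop1 deletion, and 9.19, 6.33 and 6.06 RPKM in control of set 1. There, all 3 Cop1 deletion libraries lay below all 3 controls, the opposite side from Spp1. The log2 fold change was -0.80 (SE 0.38, adjusted p = 0.235, limma), which is not called, and it was called under 1 of 18 alternatives, library weights (-1.18, adjusted p = 0.00115). In set 2, Plaur was 14.8, 13.2, 13.8 and 12.9 RPKM in Cop1 Etv4/5 deletion, 10.5, 23.2, 22.9 and 13.3 RPKM in Cop1 deletion, and 9.75, 9.40, 12.3 and 23.6 RPKM in control. The groups overlapped there, the log2 fold change after Cop1 deletion was 0.36 (SE 0.33, adjusted p = 0.467, limma), and the difference between the sets was -1.16 (SE 0.50, adjusted p = 0.242), not called. Closest to Plaur in pattern were Hbegf (r = 0.87), Neurl3 (0.85) and Zmynd15 (0.84).

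Of 14 other genes of the plasminogen system 10 were tested, and after Cop1 deletion none was called in set 1, where 8.33% of all genes were. In set 2, 3 rose and none fell (18.8% of all genes called), as on the mean of the sets (20.1%). Plat, the tissue plasminogen activator, was 31.1 ± 2.9, 36.6 ± 10.9 and 18.7 ± 8.7 RPKM in Cop1 Etv4/5 deletion, Cop1 deletion and control of set 2 (SD, n = 4 each), and 11.4 ± 1.6, 7.29 ± 1.28 and 5.18 ± 0.99 RPKM in Cop1 Etv1/4/5 deletion, Cop1 deletion and control of set 1 (n = 4, 3 and 3). It was called higher after Cop1 deletion in set 2 (log2 fold change 1.0, SE 0.23, adjusted p = 0.00498), and higher than control in Cop1 Etv1/4/5 deletion (1.07, SE 0.25, adjusted p = 0.0348) and in Cop1 Etv4/5 deletion (0.81, SE 0.23, adjusted p = 0.0315, all limma). Hgfac, which activates hepatocyte growth factor, rose by 0.75 on the mean of the sets (SE 0.15, adjusted p = 0.00113), and S100a10, a plasminogen-binding partner of annexin, by 0.81 in set 2 (SE 0.23, adjusted p = 0.0191). Met, the receptor of that growth factor, rose by 0.38 on the mean of the sets (adjusted p = 0.0412) and fell by 0.72 in Cop1 Etv1/4/5 deletion relative to Cop1 deletion (SE 0.18, adjusted p = 0.0181, limma), with all 4 libraries below all 3.

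Ptgs2 (NCBI Gene 19225) encodes cyclooxygenase 2, the inducible first enzyme of prostaglandin synthesis. It was 1.99, 1.89, 2.44 and 2.89 RPKM in Cop1 Etv1/4/5 deletion, 1.63, 1.79 and 1.11 RPKM in Cop1 deletion, and 1.67, 1.76 and 1.79 RPKM in control of set 1. The 4 Cop1 Etv1/4/5 deletion libraries lay above all 6 others, but the differences were small: the log2 fold change was 0.48 relative to Cop1 deletion (SE 0.45, adjusted p = 0.658, limma) and 0.31 relative to control (SE 0.45, adjusted p = 0.965). In set 2, Ptgs2 was 3.31, 2.23, 1.88 and 2.46 RPKM in Cop1 Etv4/5 deletion, 2.40, 2.24, 7.93 and 3.89 RPKM in Cop1 deletion, and 1.28, 1.83, 2.01 and 10.3 RPKM in control. Control replicate 4 alone stood above all Cop1 deletion libraries. With it the log2 fold change after Cop1 deletion was 0.35 (SE 0.41, adjusted p = 0.588, limma), and without it 0.92 and called (adjusted p = 0.0251).

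Of 18 other genes of the prostaglandin pathway 14 were tested, and Hpgds was the one called after Cop1 deletion, in set 1 (8.33% of all genes called) and on the mean of the sets (20.1%). It encodes a prostaglandin D synthase, and was 4.01 ± 0.27, 6.01 ± 0.99 and 2.72 ± 0.54 RPKM in Cop1 Etv1/4/5 deletion, Cop1 deletion and control of set 1 (SD, n = 4, 3 and 3). Its log2 fold change after Cop1 deletion was 1.02 in set 1 (SE 0.23, adjusted p = 0.00867, limma) and 0.75 on the mean of the sets (SE 0.15, adjusted p = 0.00183). In set 2 it was 23.5 ± 4.1, 18.5 ± 4.8 and 13.4 ± 4.6 RPKM in Cop1 Etv4/5 deletion, Cop1 deletion and control (n = 4 each), and was called in Cop1 Etv4/5 deletion relative to control (0.83, SE 0.20, adjusted p = 0.0132, limma).

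Cxcr4 (NCBI Gene 12767), the receptor of the chemokine CXCL12, had the least spread relative to its mean of the 9 genes after Cop1 deletion in set 2. It was 2.14, 2.24, 2.16 and 2.78 RPKM in Cop1 Etv1/4/5 deletion, 1.77, 3.09 and 3.27 RPKM in Cop1 deletion, and 2.45, 1.98 and 2.30 RPKM in control of set 1. In set 2 it was 7.49, 8.40, 7.81 and 6.86 RPKM in Cop1 Etv4/5 deletion, 9.90, 11.4, 8.35 and 10.2 RPKM in Cop1 deletion, and 10.6, 6.97, 8.93 and 10.7 RPKM in control. The sets did not overlap, while the genotypes of a set did. After Cop1 deletion its log2 fold change was 0.20 in set 1 (SE 0.17, adjusted p = 0.617, limma) and 0.10 in set 2 (SE 0.15, adjusted p = 0.662). In Cop1 Etv4/5 deletion relative to Cop1 deletion it was -0.36 (SE 0.15, adjusted p = 0.176, limma), not called.

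Of the 8 other genes of the CXCR4 axis, all tested, Gnai2 was the one called after Cop1 deletion, in set 2, where 9.75% of all genes were called lower. This inhibitory G protein subunit had a log2 fold change of -0.40 in set 2 (SE 0.12, adjusted p = 0.0267, limma). None of the 8 was called in set 1, against 8.33% of all genes, or in either Etv deletion, against 1.32% to 8.74% by comparison. Closest to Cxcr4 in pattern were Zdhhc16 (r = 0.81), Fbxl6 (0.77) and Igbp1 (0.72).

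Of 14 genes of integrins, CD44 and the family of small integrin-binding ligands 8 were tested, and after Cop1 deletion 1 rose in set 1 (8.33% of all genes called), and 2 rose and 1 fell in set 2 (18.8%). Itgb1, the integrin β1 chain, was 106 ± 5.0, 114 ± 23.6 and 82.7 ± 7.7 RPKM in Cop1 Etv4/5 deletion, Cop1 deletion and control of set 2 (SD, n = 4 each), and rose by 0.44 after Cop1 deletion (SE 0.09, adjusted p = 0.00281, limma). Itgb5 rose by 0.34 in set 2 (SE 0.08, adjusted p = 0.00422) and Itga9, the α9 chain, by 0.45 in set 1 (SE 0.12, adjusted p = 0.0290). Itgav, the αv chain that pairs with β5 to bind osteopontin, was 26.5 ± 8.8 RPKM in Cop1 deletion and 43.5 ± 4.3 RPKM in control of set 2 (n = 4 each), and fell by 0.77 (SE 0.21, adjusted p = 0.0136, limma). The receptor gene Cd44, chosen after its values were seen, had log2 fold changes of 0.45 in set 1 (adjusted p = 0.350) and -0.09 in set 2 (adjusted p = 0.814) after Cop1 deletion.

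Of 16 other genes named as PEA3 targets 14 were tested, and on the mean of the sets 1 rose and 3 fell after Cop1 deletion, where 9.57% of all genes rose and 10.5% fell. Muc4, a membrane mucin, rose by 1.01 (SE 0.23, adjusted p = 0.00399), while Ret, a receptor tyrosine kinase, fell by 0.40 (SE 0.09, adjusted p = 0.00406), Ccnd2, a cyclin, by 0.51 (SE 0.14, adjusted p = 0.0158) and Bcl6b, a transcriptional repressor, by 0.23 (SE 0.08, adjusted p = 0.0447, all limma). In set 2, Muc4 was 17.1 ± 3.7, 5.55 ± 1.77 and 2.56 ± 1.77 RPKM in Cop1 Etv4/5 deletion, Cop1 deletion and control (SD, n = 4 each). It was highest in Cop1 Etv4/5 deletion, with a log2 fold change of 1.57 in Cop1 Etv4/5 deletion relative to Cop1 deletion (SE 0.30, adjusted p = 0.0206, limma, all 4 libraries above all 4). Areg, an EGF receptor ligand, was 2.46 ± 0.88 RPKM in Cop1 Etv1/4/5 deletion and 0.748 ± 0.467 RPKM in Cop1 deletion of set 1 (n = 4 and 3), and rose there by 1.27 (SE 0.32, adjusted p = 0.0221, limma).

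By level, Spp1 was the highest of the 9 genes in each of the 6 groups. In set 1 control it was followed by Plaur (7.19 ± 1.73 RPKM) and Plau (6.18 ± 1.70 RPKM), which overlap each other, then by Mmp14 (2.46 ± 0.30 RPKM), Cxcr4 (2.24 ± 0.24 RPKM), Mmp2 (1.88 ± 0.64 RPKM) and Ptgs2 (1.74 ± 0.06 RPKM), whose neighbours also lie within their spread (SD, n = 3). In set 2 control, Plaur (13.8 ± 6.7 RPKM), Mmp14 (10.6 ± 5.1 RPKM) and Cxcr4 (9.31 ± 1.76 RPKM) came next and overlap (SD, n = 4). Mmp7 and Mmp9 were the lowest in every group.

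**Figure D5:**
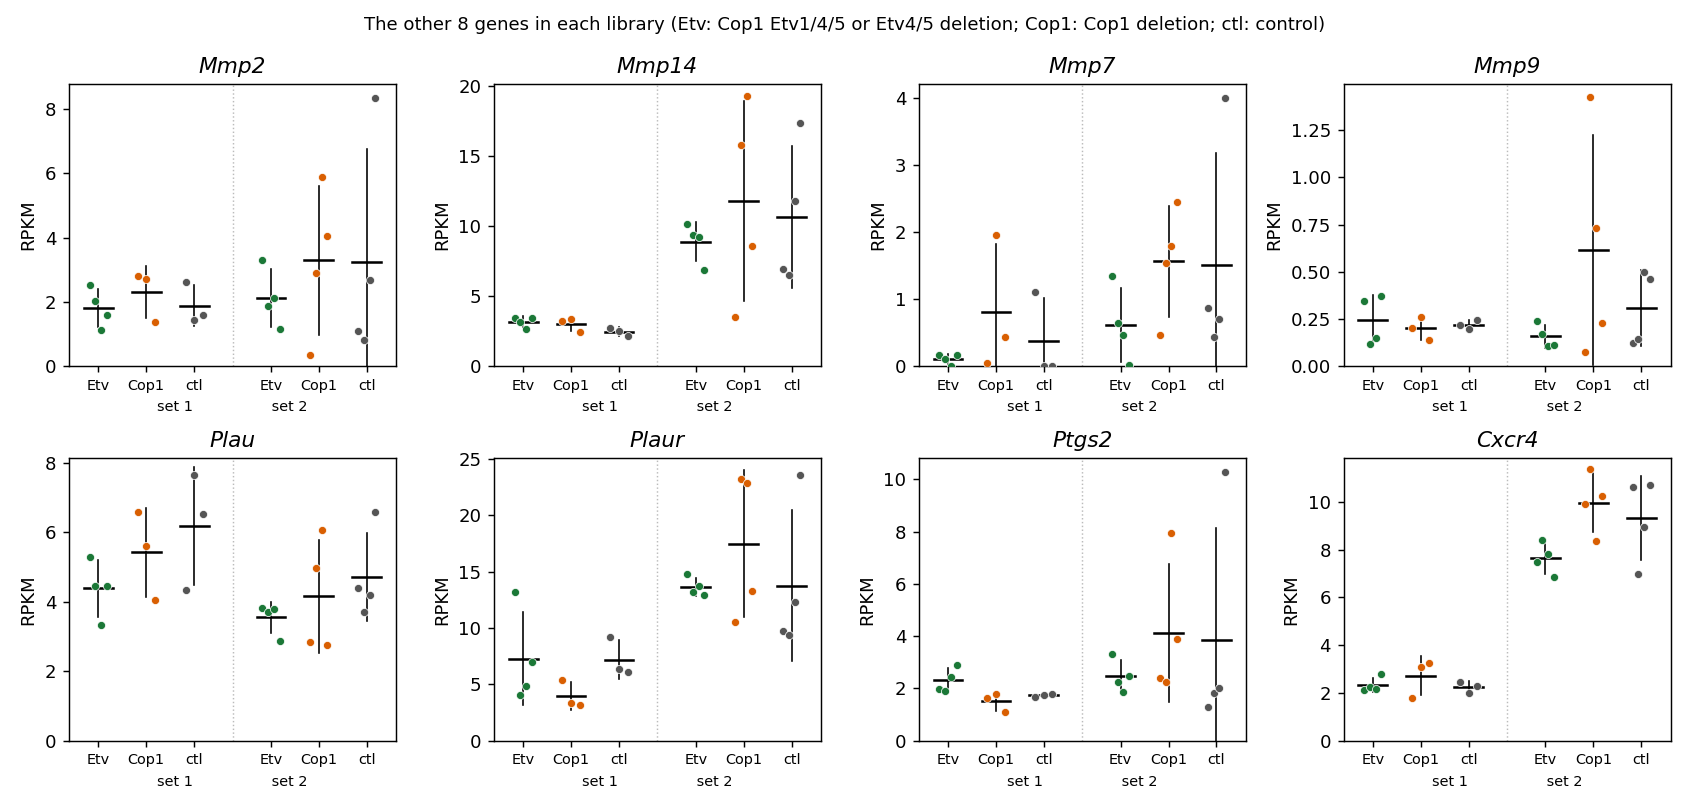
RPKM of the other 8 genes in each library of set 1 (left) and set 2 (right), with group means (horizontal bars) and 1 SD (vertical lines). Genotypes overlap in most panels, and Mmp14 and Cxcr4 are higher in all set 2 libraries than in all set 1 libraries.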

How the data were processed

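Gene expression was measured by RNA-seq of mouse islets, and the deposited table gives RPKM per gene, which the authors computed; per the submitters' processing notes the build was mm9. No aligner, counter, strand setting or annotation is named (not given in the sources used here). RPKM is relative to library totals, so a few very abundant genes can shift all others. Of 24 library columns 22 were used and 2 were not used, since their names could not be tied to 1 sample. Symbols were matched by NCBI Gene number to RefSeq (GRCm38.p6) for 24998 of 28059 genes.

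Tests took the 14342 genes that reached 1 RPKM in 4 or more libraries, on log2(RPKM + 0.5) with limma 3.58.1 (R 4.3.3, eBayes with trend and robust), with 1 mean per group, 8 contrasts, and Benjamini-Hochberg adjustment over all genes tested, at 0.05. Fold changes on this scale understate changes of low genes. Mmp9, below the filter, was tested by exact permutation. The fit was tested on simulated data. Low values (5082 genes at up to 0.3 RPKM) were within 0.01 of whole multiples of a step in 88.3% to 91.9% of cases, which gave relative depth; depth in reads is unknown, so no counting intervals are given.

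The members, gene lists and marker lists were chosen with earlier results of these data known. Named were the 9 members, the targeted genes, up to 4 called genes per list with the smallest adjusted p (up to 2 with the highest mean where none was called) and the 3 genes most like each of Spp1, Mmp2, Mmp14, Plaur and Cxcr4 (those of the other members are not reported here); Cd44 was added afterwards. Alternatives were other pseudocounts, filters, scalings and fits, and leaving out libraries.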

Additional observations from a re-analysis of the deposited data

Results flagged for a closer look

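In groups of 4 libraries, the gap between an extreme library and the nearest other one was set against the range of its group, with 0.829 as Dixon's critical value. Of 40 groups tested, 7 held such a library. Chance gives about 1 in 20 where groups are independent and values normal. Here the groups share libraries, Spp1 and its near-twin row count separately, and RPKM was taken without a log. The 7 of 40 therefore cannot be read as more than chance gives. Spp1 stood apart in set 2 Cop1 Etv4/5 deletion replicate 1, at 2013 RPKM, against 414 to 671 RPKM in the others, and the near-twin row of Spp1 likewise, at 2028 RPKM, against 422 to 678 RPKM. That row also stood apart in set 1 Cop1 Etv1/4/5 deletion replicate 1, at 39.3 RPKM, against 15.3 to 19.2 RPKM. Set 2 control replicate 4 was high for Mmp7 (3.99 RPKM, against 0.437 to 0.871 RPKM) and for Ptgs2 (10.3 RPKM, against 1.28 to 2.01 RPKM), and was the highest control of its set for 7 of the 9 genes. Plau was low in set 2 Cop1 Etv4/5 deletion replicate 4, at 2.88 RPKM, against 3.71 to 3.82 RPKM. Cxcr4 was high in set 1 Cop1 Etv1/4/5 deletion replicate 4, at 2.78 RPKM, against 2.14 to 2.24 RPKM. That library held 202 RPKM of granulocyte markers, against 0.351 to 1.44 RPKM in the others of its group.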

How the results depend on the processing

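No paired analysis was possible because the labels carry no replicate numbers that groups share. After Cop1 deletion, Spp1 on the mean of the sets was called under all 25 alternatives (log2 fold change 1.24 to 1.83), in set 1 under 13 of 18 (1.36 to 2.24) and in set 2 under 9 of 20 (1.12 to 1.58). In Cop1 Etv1/4/5 deletion relative to Cop1 deletion it was called under 18 of 19 alternatives (-2.38 to -1.70), and in Cop1 Etv4/5 deletion under 4 of 20 (-2.23 to -1.47); no direction turned in these. Leaving out single libraries, Spp1 relative to control in Cop1 Etv1/4/5 deletion ran from -0.71 to 0.16, and the difference between the sets from -0.058 to 0.81; the near-twin row of Spp1 in Cop1 Etv1/4/5 deletion relative to control ran from -0.57 to 0.26.

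The genes called numbered 1195 after Cop1 deletion in set 1, 2702 in set 2, 2877 on the mean of the sets and 406 for their difference. They numbered 909 in Cop1 Etv1/4/5 deletion and 248 in Cop1 Etv4/5 deletion relative to Cop1 deletion, and 189 and 1253 relative to control. In the same order of comparisons, library weights gave 5429, 5035, 6259, 3872, 3712, 3217, 3022 and 4766. Leaving out single libraries gave 719 to 1127, 1935 to 3418, 2274 to 3394, 217 to 843, 543 to 705, 15 to 775, 91 to 358 and 801 to 1316. With each set fitted alone, 2112 and 1469 genes were called after Cop1 deletion in set 1 and set 2, 1704 in Cop1 Etv1/4/5 deletion and 0 in Cop1 Etv4/5 deletion relative to Cop1 deletion (limma, 2077 at an unadjusted p under 0.05, against 3283 in the joint fit), and 664 in Cop1 Etv4/5 deletion relative to control. With only the groups compared in the fit, 463 were called after Cop1 deletion in set 2, 1572 on the mean of the sets, 63 for their difference, 2454 in Cop1 Etv1/4/5 deletion and 1 in Cop1 Etv4/5 deletion relative to Cop1 deletion. Scaling to equal total RPKM gave 1628 in Cop1 Etv1/4/5 deletion relative to Cop1 deletion, and leaving Ins1 and Ins2 out of that total gave 4681 after Cop1 deletion in set 2. Without set 2 Cop1 deletion replicates 2 and 3, which an earlier look had found apart, 2064 and 1593 were called after Cop1 deletion in set 1 and set 2, 1681 and 44 in Cop1 Etv1/4/5 and Cop1 Etv4/5 deletion relative to Cop1 deletion, and 328 and 2233 relative to control. The cause of these moves was not tested.

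The share of calls that were higher moved with scaling. It was 48.5% after Cop1 deletion in set 1, 48.2% in set 2 and 57.5% in Cop1 Etv1/4/5 deletion relative to Cop1 deletion, against 81.4%, 33.9% and 14.6% with equal total RPKM, which moved the median of all genes by 0.12 in set 1 after Cop1 deletion and by -0.13 in Cop1 Etv1/4/5 deletion.

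Among the other genes, none called in the fit reported, directions turned as follows. After Cop1 deletion in set 2, Mmp14 was -0.0027 with a pseudocount of 0.1, -0.066 with equal total RPKM, -0.15 with that total without insulin and -0.78 without replicates 2 and 3. Mmp2 was -0.019 and Cxcr4 -0.054 with the total without insulin, and Mmp2 was -0.50 and Plaur -0.11 without both replicates, where on the mean of the sets Mmp2 was -0.14, Mmp14 -0.27 and Ptgs2 -0.020. In Cop1 Etv4/5 deletion relative to Cop1 deletion, Mmp2 was 0.35, Mmp14 0.63, Plau 0.29 and Plaur 0.20 without both replicates, and Mmp14 was 0.10, Plau 0.28 and Plaur 0.0095 with library weights, which also gave 0.21 for Plau after Cop1 deletion in set 1. In Cop1 Etv1/4/5 deletion relative to Cop1 deletion, Mmp14 was -0.060 with equal total RPKM and -0.051 to 0.14 leaving out single libraries. Leaving out single libraries, log2 fold changes after Cop1 deletion ran from -0.044 to 1.11 for Mmp7 and -0.38 to 0.014 for Plau in set 1. In set 2 they ran from -0.30 to 0.47 for Mmp14, -0.24 to 0.74 for Mmp2, -0.032 to 0.72 for Mmp7 and -0.020 to 0.18 for Cxcr4. On the mean of the sets they ran from -0.0077 to 0.48 for Mmp2, -0.031 to 0.36 for Mmp14 and -0.084 to 0.38 for Ptgs2, and in Cop1 Etv4/5 deletion relative to Cop1 deletion from -0.88 to 0.090 for Mmp2, -0.62 to 0.15 for Mmp14 and -0.29 to 0.045 for Plau. Beside Ptgs2 after Cop1 deletion without set 2 control replicate 4, calls among the 7 genes came with library weights alone, for each of them but Mmp14. Low depth limits Mmp7 and Mmp9 most.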
